A study of Selenicereus undatus with 4 samples.

Results

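The genes examined here build ribosomes or run protein synthesis in pitaya (Selenicereus undatus, cultivar 'Jindu No.1'). They were taken by their annotation from the authors' table of differentially expressed genes (DEGs) between the NL and L2 stages. A row was taken where the annotation named a nucleolar, rRNA, U3 small nucleolar or ribosome biogenesis protein, a translation initiation factor, an elongation factor or a tRNA ligase. Rows naming a ribosomal protein or transcription elongation were left out, which removed 2 of 75 matching rows. This gave 73 unigenes of the 11051 in the table (0.661%), where a unigene is a transcript assembled without a genome.

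RNA was extracted from tissue around the thorn seat, the point on a cactus stem from which buds emerge. It came from 1-year-old plants of the same cultivar under the same field management. According to the paper's methods, samples were matched by eye so that buds of similar size were harvested at each stage. The L2 tissue may thus have held flower buds. The NL plants received no supplementary light and did not flower, and the L2 plants were lit at night during the winter and were sampled 1 week after the bud stage. Each stage had 3 libraries, and each library pooled several plants. GEO lists 1 sample for each stage, so n = 3 rests on taking the 3 library columns of a stage as its biological replicates, and p-values measure the spread between these libraries. NL and L2 differ in lighting and in bud development at once, and these cannot be told apart.

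In plants, ribosomal RNA is transcribed in the nucleolus, cut and modified there by large assemblies built around small nucleolar RNAs, and packed with ribosomal proteins into the subunits that leave for the cytosol. Translation then needs tRNA ligases, which load each amino acid onto its tRNA, initiation factors, which bring the ribosome to the start of a messenger RNA, and elongation factors, which carry the ribosome along it. Chloroplasts and mitochondria translate their own messengers on bacterial-type ribosomes, with separate factors that the nucleus encodes, and many plant tRNA ligases of organelles serve both chloroplasts and mitochondria. Growing organs with many dividing cells are known for strong ribosome production, and green tissue for strong chloroplast translation.

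The libraries held 3860701 to 7533457 reads, of which 14109 to 31341 fell on the 73 unigenes. Expression is given as RPKM (reads scaled to unigene length in kilobases and to the library's total in units of 1000000 reads), and 1 read on a unigene of 1 kb equalled 0.133 to 0.259 RPKM. The tissue of the stages differed in other markers too. The summed RPKM of the 21 listed chlorophyll a-b binding proteins, which mark green tissue, was 3611 to 4656 in NL and 640 to 1532 in L2, and 19 of the 21 were lower in limma and none was higher. Of 9 listed cyclins, which drive cell division, 8 were higher in L2 in limma and 7 with TMM and DESeq2. Their summed RPKM was 29.9 to 36.7 in NL and 83.2 to 137 in L2. All 8 rises were of D-type cyclins. The only B-type cyclin listed (Unigene0028111) fell from 16.1 to 4.90 RPKM, also with TMM and DESeq2, and no A-type cyclin was listed. Histones H1 to H4 were higher in 14 of 16 unigenes in limma, 6 of them with TMM and 5 with DESeq2, with a summed RPKM of 651 to 809 in NL and 1009 to 1666 in L2. Of 18 floral homeotic and MADS-box genes, 13 were higher in limma, 10 with TMM and 8 with DESeq2, and 5 were lower in each. Their summed RPKM was 105 to 131 in NL and 335 to 441 in L2. An AGL11 homolog and a SEPALLATA 1 homolog were at 0 in all NL libraries. The falls were JOINTLESS (Unigene0039644), from 63.4 to 8.75 RPKM, AGL19, AGL24, a FRUITFULL-like gene and a MADS transcriptional factor. The part of these tissue differences in the results below was not tested. In such bulk RNA, fewer cells of a type and less RNA per cell cannot be told apart.

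Of the 73 unigenes, 54 (74.0%) were higher and 19 (26.0%) were lower in L2 in limma, where the adjusted p had to reach 0.05. Among all listed genes 63.0% were higher and 36.3% were lower. All of these genes had been listed by the authors because they differed between the same libraries, so a call here is not independent evidence of a difference. The median log2 change of the 73 unigenes was 1.27, beside 1.43 over all listed genes. In 52 of the 73 every L2 library lay above every NL library and in 18 below, beside 62.0% and 35.5% of all listed genes. NL and L2 were thus separate in 70 of the 73 unigenes (95.9%), beside 97.6% of the table. The changes were moderate in size, with 27 of the 54 rises below 1.5 on the log2 scale and 13 above 2.

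The number of rises depended on the scaling of the libraries. The RPKM values are scaled by the library total. The factors of edgeR (TMM) and DESeq2 take the typical gene of a table as constant, an assumption that a table of DEGs breaks. Per library total, these factors scaled L2 down against NL by 0.85 and 1.08 on the log2 scale, and brought the median of all listed genes to 0.59 and 0.36. With edgeR on library totals, 54 were higher and 19 lower (63.4% and 36.6% of all listed genes), and with limma after upper quartile scaling 46 and 19 (54.4% and 36.4%). With TMM, 26 of the 73 were higher and 19 lower, beside 38.6% and 36.6% of all listed genes. With DESeq2, 13 were higher and 19 lower, beside 25.1% and 36.4%. The median of the 73 lay below that of all listed genes here as well, at 0.38 with TMM and 0.15 with DESeq2. Each of the 19 falls thus passed with library totals, TMM and DESeq2, called the 3 scalings below, and 13 of the 54 rises did, while 4 rises turned to log2 changes just below 0 with DESeq2. Falls become larger when L2 is scaled down. Of the 4041 falls of the whole table, 4041 passed with TMM and 4023 with DESeq2, so passing there does not make a fall firmer than a rise.

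**Figure D1:**
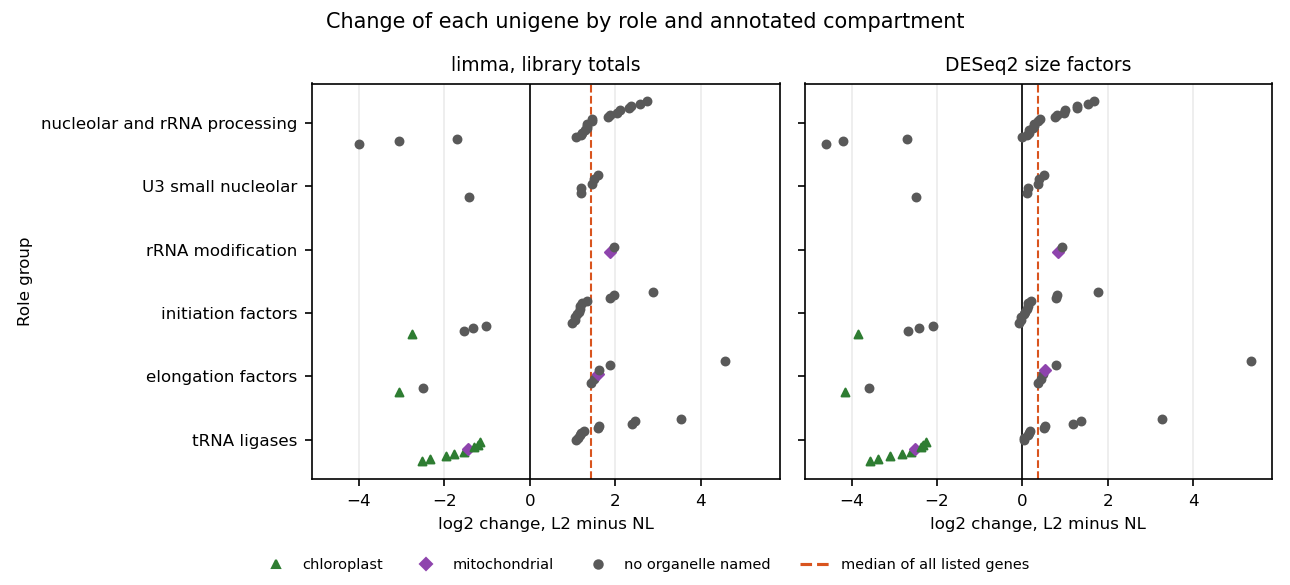
Log2 change of L2 against NL for 71 unigenes, by role (vertical axis) and by the compartment in the annotation (symbol), with library totals in limma (left) and with DESeq2 size factors (right). The 2 unigenes whose annotation names another function are not drawn, and the dashed line is the median of all listed genes, at 1.43 on the left and 0.36 on the right. All 10 unigenes marked as chloroplast, of which 8 are tRNA ligases named chloroplastic/mitochondrial, lie below 0 in both panels. Most others lie above 0 on the left and closer to 0 on the right.

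Of 28 nucleolar, U3 and rRNA unigenes, 24 (85.7%) were higher and 4 were lower in L2 in limma, with a median log2 change of 1.45. All listed genes gave 63.0%, 36.3% and 1.43, and the difference between these was not tested. The 24 rises were 2.12-fold to 6.65-fold in mean RPKM, with a median of 2.79-fold. With TMM 16 of the 24 passed and with DESeq2 8 (38.6% and 25.1% of all listed genes), and the sign turned only for RLP24, with DESeq2. The 4 falls passed in both, as did nearly all falls of the table. KEGG places 10 of the 28 in ribosome biogenesis in eukaryotes, and all 10 were among the rises. Most of the cyclins and histones above moved in the same direction, and their part in these rises was not tested.

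Of the unigenes named for the core of the box C/D particles, which guide the methylation of rRNA, 3 were among the largest rises. Nucleolar protein 58-like (Unigene0051318) is named for a scaffold protein of these particles, but has no symbol and is not placed in KEGG ribosome biogenesis. Its RPKM values were 3.80, 6.27 and 3.48 in the NL libraries and 33.2, 28.0 and 28.8 in the L2 libraries. Every L2 library lay above every NL library by a wide margin, and the mean rose from 4.52 ± 1.53 to 30.04 ± 2.79 (SD, n = 3), a log2 change of 2.75 ± 0.27 (SE, limma adjusted p = 8.96e-05). Its partner nucleolar protein 56-like (Unigene0034064) was at 6.88, 4.24 and 3.59 in NL and at 26.5, 12.9 and 22.2 in L2, a log2 change of 2.04 ± 0.36 (SE, limma adjusted p = 0.00119). For fibrillarin 2 (Unigene0034842), the methyltransferase of the particle, the values were 2.21, 3.46 and 1.90 in NL and 10.3, 9.02 and 10.6 in L2, and the log2 change was 1.98 ± 0.34 (SE, limma adjusted p = 9.85e-04). These 3 unigenes also passed with TMM and with DESeq2. A further unigene of the family, probable nucleolar protein 5-2 (Unigene0045578), had the higher level of the family in NL, 28.5 ± 2.54 RPKM, and rose 2.56-fold to 73.0 ± 11.5 (SD, n = 3). This was below the median of 2.79-fold of the nucleolar, U3 and rRNA rises. Unigene0045578 has the symbol NOP5-2 and is placed in KEGG ribosome biogenesis. It did not pass with DESeq2 (adjusted p = 0.243). The other rRNA methyltransferase, annotated as mitochondrial (Unigene0002912), rose from 1.08 ± 0.466 to 4.10 ± 1.08 RPKM (SD, n = 3).

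The U3 small nucleolar particle works in the small subunit processome, which makes the first cuts that release the RNA of the small subunit. Of 6 unigenes named for it, 5 rose and 1 fell. IMP3 (Unigene0034906), which binds the U3 RNA, was at 8.71, 12.6 and 12.3 RPKM in NL and at 31.6, 34.6 and 35.2 in L2, a log2 change of 1.599 ± 0.21 (SE, limma adjusted p = 2.75e-04). IMP4 (Unigene0032392), its partner in the particle, had the highest level of the 6 in L2, at 44.4, 40.5 and 52.1 RPKM against 16.5, 22.7 and 20.7 in NL. For U3 small nucleolar RNA-associated protein 4 (Unigene0009831), the values were 13.1, 14.3 and 15.1 in NL and 36.2, 35.7 and 45.9 in L2. The stages did not overlap in any of these 3. The homologs of proteins 18 (Unigene0035550) and 6 (Unigene0044904) rose 2.77-fold and 2.34-fold. With TMM only protein 4 and IMP3 of the 5 rises passed, and none of the 5 passed with DESeq2, where their log2 changes were 0.11 to 0.51.

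The exception was the unigene annotated as U3 small nucleolar RNA-associated protein 14 B (Unigene0038373). Its RPKM was 30.4, 28.9 and 34.6 in the NL libraries and 13.3, 8.16 and 14.1 in the L2 libraries. All L2 libraries lay below all NL libraries, with a log2 change of -1.43 ± 0.25 (SE, limma adjusted p = 0.00105). It was the most abundant of the 6 in NL and the least abundant but one in L2.

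Other proteins of the small subunit pathway rose as well. RRP5 (Unigene0008048), which acts in the maturation of both subunits, was at 6.66, 6.27 and 3.49 RPKM in NL and at 15.2, 12.7 and 16.5 in L2. BMS1 (Unigene0036887), a GTPase of the processome, was at 12.5, 13.2 and 11.2 in NL and at 31.3, 27.4 and 36.0 in L2. Their log2 changes were 1.46 and 1.35 (limma adjusted p = 0.00265 and 3.89e-04). Nucleolar complex protein 4 (Unigene0047769), which in yeast belongs to the small subunit pathway, varied more, with 7.46, 9.89 and 3.71 in NL and 23.9, 16.9 and 11.2 in L2. Its adjusted p was 0.0155 with all libraries and 0.0771 without L2 replicate 1 and 0.0527 without L2 replicate 2. Both unigenes annotated as pre-rRNA-processing protein esf1, a factor of the small subunit pathway in yeast, rose strongly. Unigene0040810 went from 7.01 ± 2.76 to 29.2 ± 1.73 and Unigene0040811 from 3.07 ± 0.390 to 18.8 ± 1.40 RPKM (SD, n = 3), with log2 changes of 2.12 and 2.58 (limma adjusted p = 4.28e-04 and 7.78e-05). Both passed under all 3 scalings. Their numbers in the assembly are consecutive, and whether they are pieces of the same gene was not tested.

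**Figure D2:**
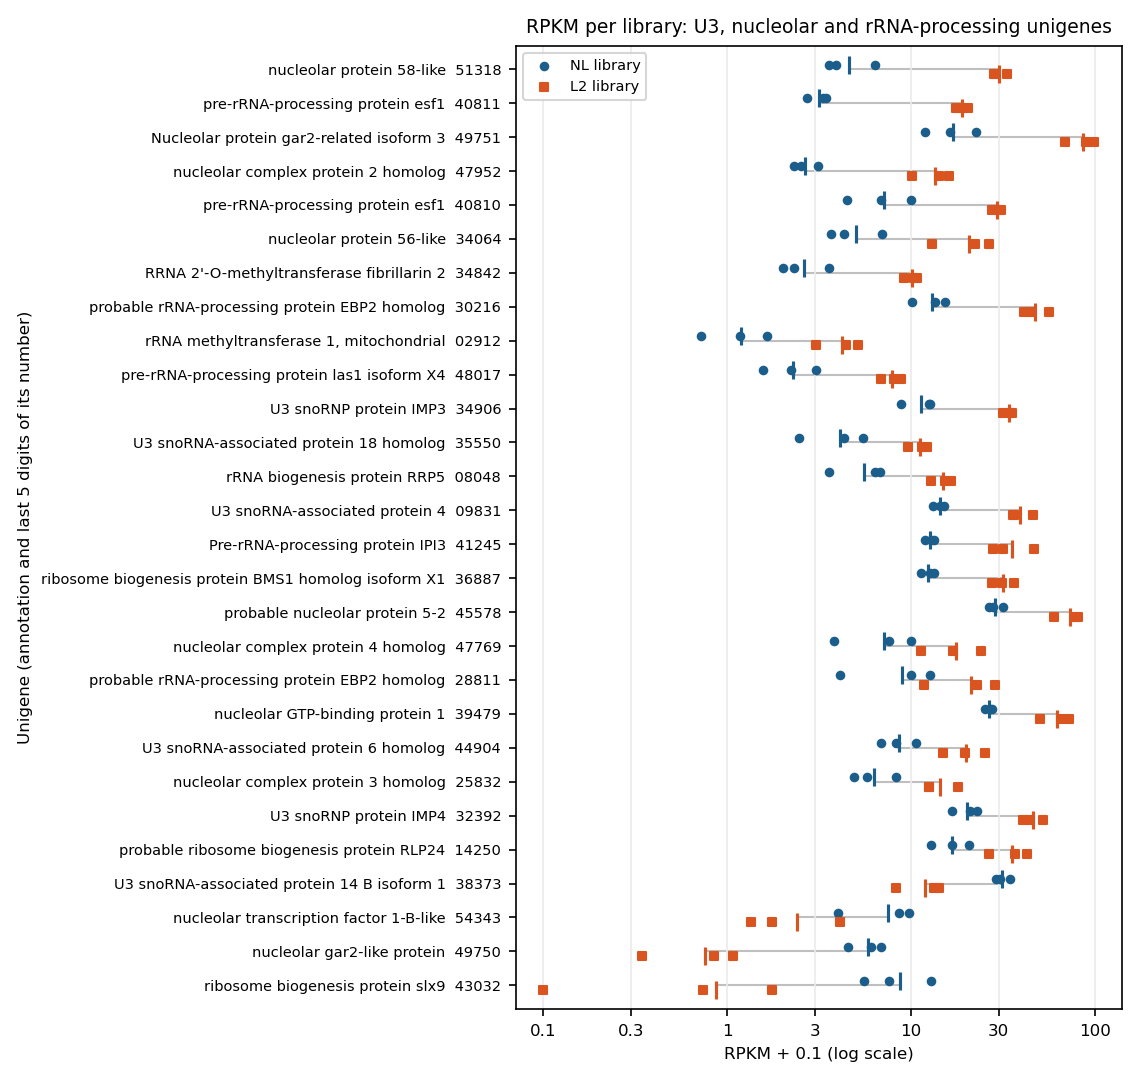
RPKM + 0.1 (log scale) of the 28 nucleolar, U3 and rRNA unigenes in each NL library (circles) and each L2 library (squares), with bars at the stage means. The 24 unigenes from the top are higher in L2, with nucleolar protein 58-like first at a mean of 4.52 in NL and 30.04 in L2, and the 4 at the bottom are lower.

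Factors of the large subunit were also higher in L2. Nucleolar complex protein 2 (Unigene0047952), which in yeast escorts early large subunit precursors, had 2.22, 2.42 and 2.999 RPKM in NL and 14.1, 9.97 and 16.1 in L2. Its log2 change of 2.33 ± 0.31 (SE, limma adjusted p = 3.23e-04) was above that of its partner, nucleolar complex protein 3 (Unigene0025832), which was at 5.66, 4.78 and 8.23 in NL and at 17.9, 12.5 and 12.5 in L2 and changed by 1.20. The difference between these partners was not tested. Of the paired unigenes for EBP2, a large subunit factor in yeast, Unigene0030216 rose from 12.9 ± 2.59 to 47.2 ± 7.91 RPKM (SD, n = 3) and passed under all 3 scalings. Unigene0028811 was at 4.001, 9.86 and 12.6 in NL and at 22.7, 11.7 and 28.6 in L2, so its stages overlapped, and its adjusted p of 0.0300 in limma went to 0.124 without L2 replicate 3, and was above 0.05 also without L2 replicate 1 or NL replicate 1.

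Nucleolar GTP-binding protein 1 (Unigene0039479), a GTPase on large subunit precursors, was at 25.1, 27.5 and 26.7 RPKM in NL and at 65.0, 49.9 and 71.7 in L2. RLP24 (Unigene0014250), which in yeast holds the place of a ribosomal protein until export, rose 2.12-fold in limma (adjusted p = 0.00453), and its log2 change was -0.02 with DESeq2. IPI3 and las1, which in yeast act in the removal of a spacer from the precursor RNA, were at 12.6 ± 0.681 and 2.18 ± 0.738 RPKM in NL and at 35.3 ± 10.1 and 7.79 ± 0.941 in L2 (SD, n = 3). Of these 4 factors, IPI3 (Unigene0041245) and las1 (Unigene0048017) passed with TMM and none passed with DESeq2.

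A pair of unigenes with consecutive numbers, both annotated with gar2, a nucleolin-like protein first described in fission yeast, moved in opposite directions. Unigene0049751 (nucleolar protein gar2-related) was the most abundant nucleolar unigene in L2, with 68.9, 99.3 and 88.8 RPKM there and 16.1, 22.6 and 11.9 in NL. Its log2 change was 2.37 ± 0.26 (SE, limma adjusted p = 1.43e-04). Unigene0049750 (nucleolar gar2-like protein) was at 5.93, 6.77 and 4.43 in NL and at 0.7505, 0.244 and 0.973 in L2, a log2 change of -3.07 ± 0.57 (SE, limma adjusted p = 0.00145). The stages were separate in each of them, and both calls held under the 3 scalings.

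The remaining falls of this group rested on few reads or on overlapping libraries. The slx9 unigene (Unigene0043032), named for a ribosome biogenesis protein, is 208 nt long and had 24 reads in NL and 3 in L2. The libraries gave 12.7, 7.47 and 5.47 RPKM in NL and 0.638, 0 and 1.66 in L2, an 11.2-fold lower level per library total in L2 with a 95% exact interval of 3.40 to 58.2. The unigene for nucleolar transcription factor 1-B-like (Unigene0054343), whose animal namesake switches on rRNA transcription by RNA polymerase I, was at 8.51, 9.67 and 3.89 in NL and at 3.998, 1.25 and 1.66 in L2. The lowest NL library lay below the highest L2 library, and the adjusted p of 0.0176 in limma reached 0.0676 when NL replicate 2 was left out, and was also above 0.05 without NL replicate 1, L2 replicate 2 or L2 replicate 3.

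Of the 16 translation initiation factors, 12 were higher and 4 were lower in L2 in limma, with a median log2 change of 1.13, beside 63.0%, 36.3% and 1.43 for all listed genes. The 12 rises were 2.00-fold to 7.02-fold, 9 of them below 2.5-fold, near the 2-fold limit of the authors' table. Only 1 of them passed with TMM and with DESeq2, beside 38.6% and 25.1% of all listed genes. The 4 falls passed under each scaling, as did nearly all falls of the table. Of the 12 rises, 3 had a log2 change just below 0 with DESeq2.

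The initiation factor eIF3, the large complex that binds the small subunit, was named in 5 unigenes. All 5 rose with log2 changes of 1.05 to 1.34 in limma, although subunit D was at -0.03 with DESeq2. Subunit E (Unigene0047889) and subunit D (Unigene0039548) had the highest mean RPKM of the initiation factors over the 6 libraries. Subunit E was at 59.1, 63.0 and 62.5 RPKM in NL and at 163, 99.4 and 165 in L2, and subunit D at 54.7, 64.2 and 53.2 in NL and at 121, 106 and 130 in L2. Neither overlapped between the stages. The adjusted p was 0.00167 for subunit E and 6.59e-04 for subunit D in limma, but 0.68 and 0.907 with DESeq2, so that neither call held there. Both unigenes of subunit F rose by a similar factor at very different levels, Unigene0033061 from 20.6 ± 4.36 to 46.0 ± 5.69 and Unigene0001843 from 1.67 ± 0.178 to 3.903 ± 0.933 RPKM (SD, n = 3). The unigene annotated as subunit A (Unigene0042332) has the symbol At3g25440, and whether that gene encodes an eIF3 subunit was not tested. It was near the threshold, with 0.789, 1.85 and 2.71 in NL and 2.74, 4.31 and 6.15 in L2. Its adjusted p of 0.0481 in limma rose to 0.155 without L2 replicate 3. The adjusted p was above 0.05 also without L2 replicate 2, NL replicate 1 or NL replicate 2. The call for Unigene0001843 was lost without L2 replicate 3 or NL replicate 1 (adjusted p = 0.0664 and 0.0532) and with the replicate number as a block (0.0524). None of the 5 passed with TMM.

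The scaffold proteins eIF4G and its plant isoform hold the cap-binding complex together. eIF4G (Unigene0047447) was at 19.2, 20.4 and 22.3 RPKM in NL and at 42.2, 38.3 and 48.6 in L2. The unigene with the symbol EIF(ISO)4G1 (Unigene0036737) was at 29.0, 38.2 and 38.0 in NL and at 55.9, 83.6 and 90.6 in L2. Their log2 changes were 1.05 and 1.11 (limma adjusted p = 7.83e-04 and 0.00242), and -0.03 and 0.05 with DESeq2. Subunit beta of eIF2 (Unigene0030221), which brings the initiator tRNA, and eIF5B (Unigene0051328), which joins the subunits, were low, at 0.860 ± 0.461 and 1.83 ± 0.757 RPKM in NL and 3.36 ± 1.55 and 4.21 ± 0.985 in L2 (SD, n = 3). The call for eIF2 was lost without L2 replicate 3 (adjusted p = 0.0568), and that for eIF5B without any 1 of the L2 libraries, NL replicate 2 or NL replicate 3 (up to 0.0964).

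The unigenes for eIF4B, a partner of the helicase that opens messenger RNA, went in opposite directions. Unigene0047152 (eIF4B) was at 12.99, 11.9 and 12.4 RPKM in NL and at 26.9, 23.2 and 24.8 in L2, a 2.00-fold rise in limma that turned to a log2 change of -0.08 with DESeq2. Unigene0048528 (eIF4B1) was the more abundant of them in NL, with 67.7, 75.5 and 67.9, and fell to 29.2, 40.8 and 35.0 in L2, a log2 change of -1.02 ± 0.18 (SE, limma adjusted p = 0.00107). Their levels in L2 were thus nearer to each other than in NL.

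Of the factors without an organelle in their annotation, eIF1A and eIF6 also fell. For eIF1A (Unigene0033008), which helps the small subunit to scan for the start codon, the values were 41.7, 40.3 and 48.5 RPKM in NL and 14.6, 18.5 and 18.7 in L2, a log2 change of -1.33 ± 0.18 (SE, limma adjusted p = 3.54e-04). For eIF6-2 (Unigene0049146), which keeps the large subunit from joining too early and also acts in its assembly, they were 22.0, 15.4 and 19.6 in NL and 6.32, 5.65 and 7.12 in L2, a log2 change of -1.55 ± 0.23 (SE, limma adjusted p = 5.51e-04). It was the only unigene in KEGG ribosome biogenesis among the 73 that fell.

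IF-2 is the bacterial-type factor that places the initiator tRNA in organelles. The unigene named chloroplastic (Unigene0049269) was at 64.7, 70.7 and 82.5 RPKM in NL and at 9.38, 10.9 and 11.8 in L2, a 6.81-fold lower mean and a log2 change of -2.76 ± 0.18 (SE, limma adjusted p = 3.93e-05). The IF-2 unigenes without a compartment rose instead. Unigene0028694 was at 1.44, 1.06 and 0.310 in NL and at 6.51, 6.90 and 6.33 in L2, and Unigene0029602 at 7.28, 2.97 and 8.17 in NL and at 14.7, 26.2 and 28.7 in L2. Unigene0028694, with a log2 change of 2.89, was the 1 rise of an initiation factor that passed under all 3 scalings. The table gives no symbol for either, so that their compartment is not known here.

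**Figure D3:**
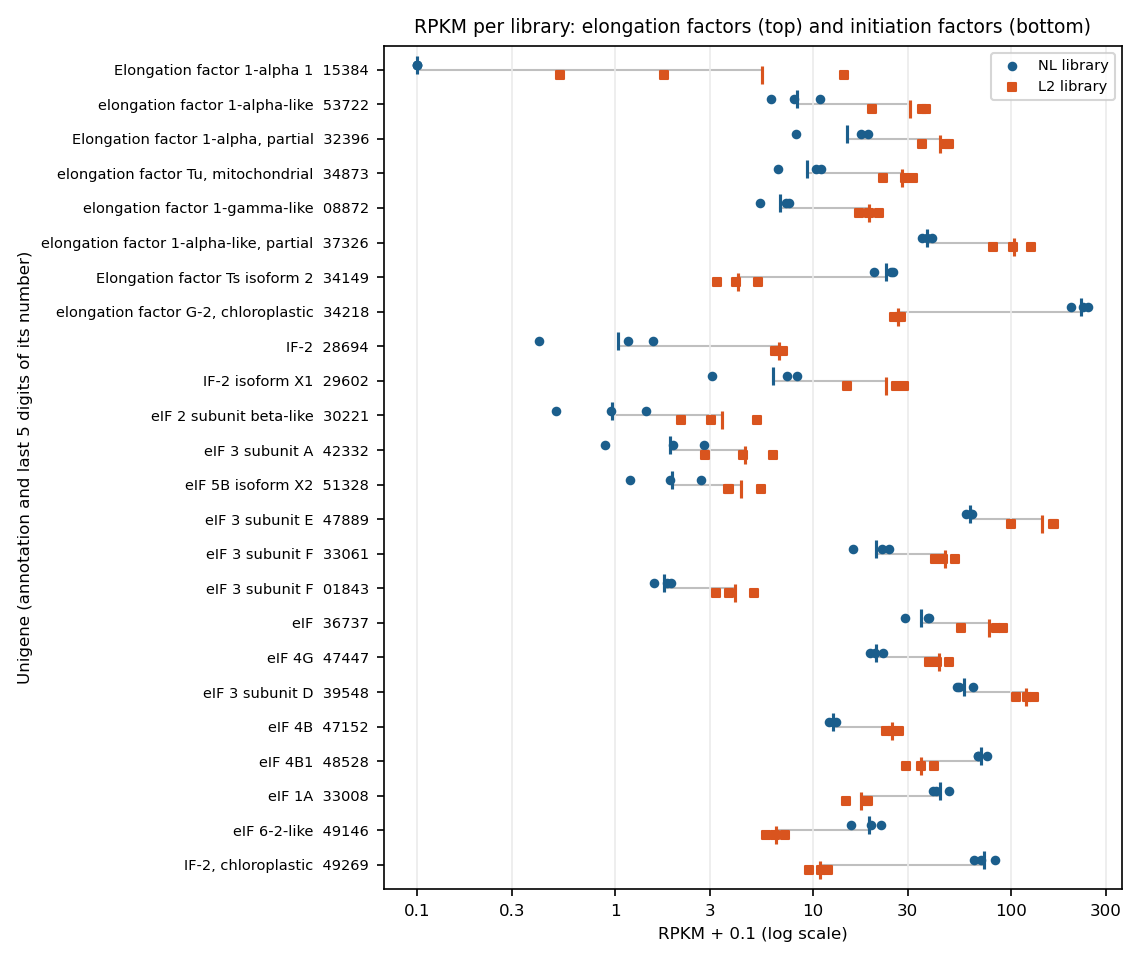
RPKM + 0.1 (log scale) of 8 elongation factors (upper rows) and 16 initiation factors (lower rows) in each NL library (circles) and each L2 library (squares), with bars at the stage means. Elongation factor G-2 of the chloroplast has the highest level, with a mean of 225 in NL and 26.8 in L2, and chloroplastic IF-2 in the last row falls from 72.6 to 10.7.

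Of 8 elongation factors, 6 rose and 2 fell in limma, with a median log2 change of 1.56. Among all listed genes 63.0% rose and 36.3% fell, with a median of 1.43. Of the 6 rises 5 passed with TMM and 1 with DESeq2, beside 38.6% and 25.1% of all listed genes. Elongation factor 1-alpha, which delivers loaded tRNAs to the cytosolic ribosome, was named in 4 unigenes. The most abundant of them (Unigene0037326) was at 37.3, 39.8 and 35.2 RPKM in NL and at 102, 80.8 and 126 in L2, a log2 change of 1.44 ± 0.20 (SE, limma adjusted p = 3.54e-04). Unigene0053722 rose from 8.20 ± 2.36 to 30.7 ± 9.56 and Unigene0032396 from 14.7 ± 5.79 to 43.5 ± 7.196 (SD, n = 3). All 3 had higher values in every L2 library, and none passed with DESeq2. They are short for the gene, at 421 to 847 nt, and reads of near-identical copies could have been shared among them.

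The fourth unigene of the name (Unigene0015384) stood apart. It had no reads in NL and 59 in L2, which is at least 14.03-fold higher when NL is set to the floor of 3 reads per stage. Its L2 values were 0.428, 14.2 and 1.67 RPKM, so most of the signal came from L2 replicate 2. The symbol in the table, Ef1alpha48D, is that of a fruit fly gene, and the source of these reads was not tested.

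Elongation factor 1-gamma (Unigene0008872), a subunit of the complex that recharges elongation factor 1-alpha with GTP, was at 5.31, 7.48 and 7.21 RPKM in NL and at 16.8, 19.0 and 21.4 in L2. The mitochondrial elongation factor Tu (Unigene0034873), the counterpart of elongation factor 1-alpha in that organelle, was at 10.2, 10.8 and 6.52 in NL and at 31.9, 22.5 and 29.1 in L2. Their log2 changes were 1.51 and 1.61 (limma adjusted p = 6.27e-04 and 7.80e-04), and both passed with TMM and not with DESeq2.

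Elongation factor G-2 of the chloroplast (Unigene0034218), which moves the ribosome along after each amino acid, was the most abundant of the 73 unigenes in NL. Its RPKM was 230, 200 and 245 in the NL libraries, from 10472 reads over the stage, and 27.1, 27.7 and 25.5 in the L2 libraries. The L2 libraries were close to each other and far below those of NL, and the mean was 8.41-fold lower, a log2 change of -3.06 ± 0.15 (SE, limma adjusted p = 2.94e-05). Elongation factor Ts (Unigene0034149), in bacteria the partner that reloads elongation factor Tu, was at 25.1, 24.7 and 20.1 in NL and at 3.96, 3.16 and 5.14 in L2, a log2 change of -2.50 ± 0.26 (SE, limma adjusted p = 1.04e-04). Its annotation names no compartment.

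The 19 tRNA ligases split by compartment. All 9 whose annotation named an organelle, 8 as chloroplastic/mitochondrial and 1 as mitochondrial, were lower in L2, and all 10 without an organelle, of which 4 were named cytoplasmic, were higher. These counts are a description, with no test of the split, and among all listed genes 63.0% were higher and 36.3% were lower. The 8 chloroplastic/mitochondrial enzymes fell 2.26-fold to 5.43-fold, and NL and L2 were separate in each, as in 97.6% of the table. The rises of the others ranged from 2.17-fold upwards. Of these 10, 2 passed with TMM and 1 with DESeq2, beside 38.6% and 25.1% of all listed genes. The 9 falls passed under each scaling, as did nearly all falls of the table.

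Alanine and proline were each represented on both sides. Alanine--tRNA ligase, chloroplastic/mitochondrial (Unigene0049518) was at 15.8, 18.5 and 20.4 RPKM in NL and at 2.31, 2.24 and 5.53 in L2, a log2 change of -2.53 ± 0.38 (SE, limma adjusted p = 5.88e-04). The alanine enzyme without a compartment (Unigene0030690) was at 5.64, 3.31 and 5.19 in NL and at 16.4, 11.5 and 15.6 in L2, a log2 change of 1.62 ± 0.30 (SE, limma adjusted p = 0.00145). The order of this pair was thus reversed between the stages, with the organellar unigene higher in every NL library and lower in every L2 library. For proline, the organellar enzyme (Unigene0036579) was at 37.6, 28.9 and 47.6 in NL and at 8.55, 9.92 and 9.84 in L2, and the other (Unigene0045089) at 8.51, 8.85 and 7.04 in NL and at 21.5, 17.7 and 17.4 in L2. Their order was reversed in the same way. With DESeq2 the log2 changes of the alanine and proline enzymes without a compartment were 0.52 and 0.15 and did not pass.

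The most abundant organellar ligase was that for phenylalanine (Unigene0031669), at 60.6, 51.7 and 81.1 RPKM in NL and at 26.7, 31.6 and 19.5 in L2. That for tryptophan (Unigene0047986) went from 29.7, 30.7 and 34.9 in NL to 4.02, 8.55 and 6.88 in L2, a log2 change of -2.34 ± 0.29 (SE, limma adjusted p = 2.47e-04). The enzymes for threonine (Unigene0040943), leucine (Unigene0003573), cysteine (Unigene0045670) and valine (Unigene0053263) fell 2.89-fold, 2.34-fold, 2.26-fold and 3.36-fold. The second valine enzyme, named mitochondrial (Unigene0053668), was at 10.6, 15.9 and 7.47 in NL and at 4.65, 4.90 and 2.64 in L2, so that every library of L2 was lower as well.

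Among the enzymes that were higher in L2, asparagine--tRNA ligase, cytoplasmic (Unigene0035955) was the most abundant, at 26.5, 23.4 and 29.6 RPKM in NL and at 71.5, 51.7 and 70.2 in L2, a log2 change of 1.27 ± 0.19 (SE, limma adjusted p = 5.81e-04). Glutamine--tRNA ligase, cytoplasmic (Unigene0005336) followed, at 11.4, 14.9 and 11.7 in NL and 26.3, 24.3 and 32.3 in L2. Of the unigenes for the cytoplasmic glutamate enzyme, Unigene0047012 was at 0.659, 0.967 and 2.48 in NL and at 6.59, 4.89 and 8.93 in L2, a log2 change of 2.39 that passed under all 3 scalings, and Unigene0012731 went from 2.46 ± 0.146 to 5.34 ± 0.552 (SD, n = 3). The methionine enzyme (Unigene0032948) rose 3.08-fold from 1.23 ± 0.504 RPKM.

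The other rises were of low level. The isoleucine enzyme (Unigene0004083) was at 1.44 ± 0.408 RPKM in NL and 3.32 ± 0.554 in L2 (SD, n = 3), and its adjusted p of 0.0319 in limma was 0.0710 with the replicate number as a block and up to 0.0798 without any 1 of the L2 libraries or NL replicate 3. For arginine, Unigene0038612 had no reads in NL and 16 in L2, at least 3.81-fold higher against the floor of 3 reads. Unigene0038613 was at 0, 0.880 and 0.645 in NL and at 2.71, 0.781 and 4.97 in L2, so that L2 replicate 2 lay within the NL range, and its adjusted p was 0.0432 in limma and up to 0.154 without L2 replicate 1, L2 replicate 3, NL replicate 1 or NL replicate 3.

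**Figure D4:**
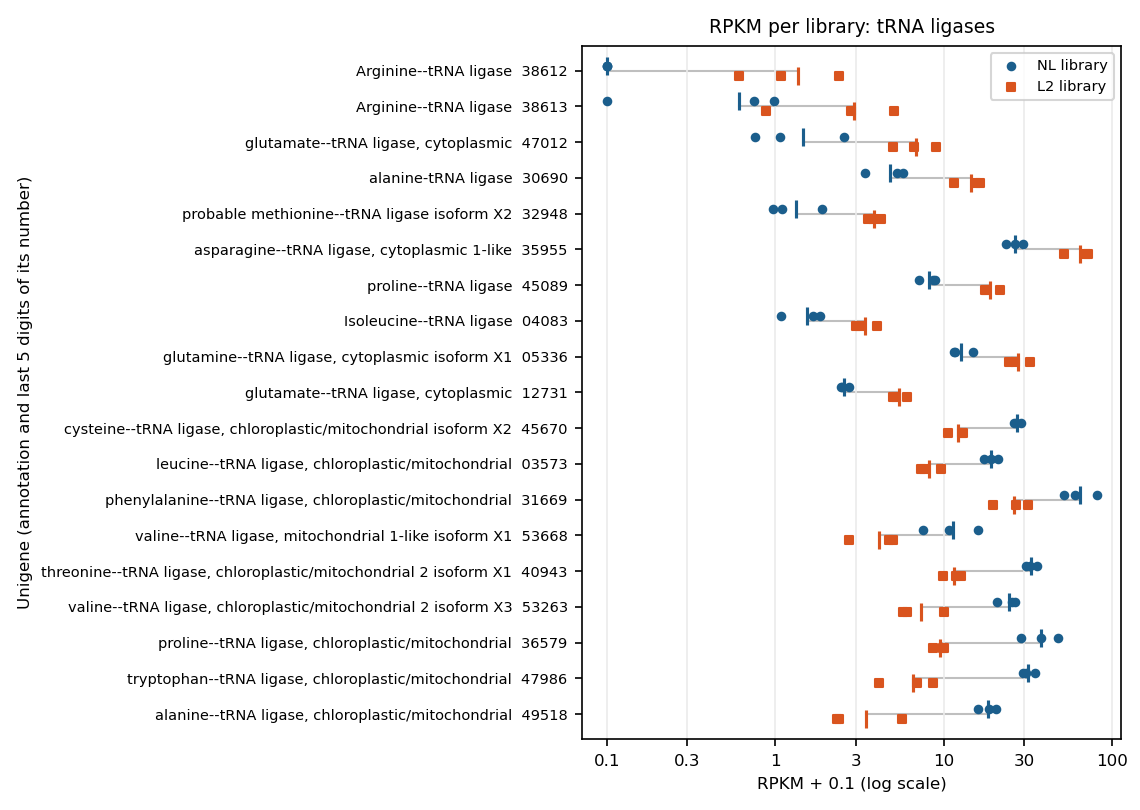
RPKM + 0.1 (log scale) of 19 tRNA ligases in each NL library (circles) and each L2 library (squares), with bars at the stage means, in order of log2 change. The 10 enzymes from the top name no organelle and are higher in L2, and the 9 below them name an organelle and are lower, such as that for alanine in the last row with means of 18.2 and 3.36.

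Across roles, 10 unigenes had the chloroplast in their annotation, of which 8 were the tRNA ligases named chloroplastic/mitochondrial. The median log2 change of the 10 was -1.87, and the highest adjusted p among them was 0.00152 in limma. The 58 that named no organelle had a median of 1.34, with 50 higher and 8 lower. Over all listed genes the median was 1.43, with 63.0% higher and 36.3% lower. With TMM 22 of the 58 and with DESeq2 11 were higher, beside 38.6% and 25.1% of all listed genes. In the summed RPKM of the 71 unigenes with a role here, the 10 chloroplast unigenes made up 37.1% to 43.6% in the NL libraries and 6.03% to 8.11% in the L2 libraries. Their sum was 504 to 620 RPKM in NL and 114 to 132 in L2, and that of the 58 was 769 to 826 in NL and 1461 to 1818 in L2. The 3 unigenes named for mitochondria alone were 2 rises and 1 fall. Another 670 listed genes had chloroplast or plastid in the annotation, a list chosen after the values had been seen. In limma 447 of them were lower and 217 (32.4%) were higher, beside 36.3% and 63.0% of all listed genes. With TMM 138 and with DESeq2 94 were higher, beside 38.6% and 25.1%. With each, 453 were lower, beside 36.6% and 36.4%. The chlorophyll a-b binding proteins, which fell along with these factors as given above, are counted among the 670.

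The rule also took in 2 unigenes whose annotation names another function. Unigene0029583 is annotated as the protein synthesis inhibitor PD-S2, a ribosome-inactivating protein of the pokeweed family of toxins that removes a base from rRNA. It had no reads in NL and 500 in L2, at 28.6, 22.2 and 10.96 RPKM, which is at least 119-fold higher against the floor of 3 reads. Unigene0030998, annotated as an RNA polymerase II elongation factor, which acts in transcription, rose from 0.295 ± 0.258 to 3.70 ± 1.33 RPKM (SD, n = 3), with 0.407, 0.478 and 0 in NL. Without these rows 52 unigenes were higher and 19 lower.

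Steps of the pathway outside the 73 unigenes were read from other rows of the table. For comparison, 63.0% of all listed genes were higher in limma, 38.6% with TMM and 25.1% with DESeq2. In KEGG ribosome biogenesis in eukaryotes, 21 of the 24 further unigenes were higher and 3 lower in limma, with 11 higher with TMM, 9 with DESeq2 and the same number of falls. Of the 3 falls, 2 were annotated as retrovirus-related polyproteins. All 5 subunits of RNA polymerases I and III, which transcribe rRNA and tRNA, were higher in limma, with log2 changes of 1.07 to 1.45, as was an initiation factor of RNA polymerase I (Unigene0035864) at 2.18, and none of these 6 passed with TMM or DESeq2. Of 13 unigenes named for ribosome assembly proteins, among them the H/ACA particle, nucleolin and pescadillo, 12 were higher in limma and RRP41 of the exosome was lower, and 5 of the 13 are also among the 24 of KEGG. With TMM 6 and with DESeq2 4 of the 13 were higher, and the median log2 change of 2.18 went to 1.19 and 0.97, and to 1.40 on log2(RPKM + 1). Subunit 4 of the H/ACA particle (Unigene0043493), the enzyme that makes pseudouridine in rRNA, went from 10.1 to 47.7 RPKM.

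The ribosomal proteins showed the compartments in the same way. Of 101 listed proteins of the cytosolic 40S and 60S subunits, 97 were higher and 4 lower in limma. Of 30 of the chloroplast or plastid, 2 were higher and 27 lower. Among all listed genes 63.0% were higher and 36.3% lower. With TMM 34 of the 101 and with DESeq2 14 were higher. These were smaller shares than the 38.6% and 25.1% of all listed genes. For the later steps of translation few genes were listed. Both listed peptide chain release factors of the chloroplast, which end protein synthesis, fell, PrfB3 (Unigene0038532) from 93.4 to 18.1 and APG3 (Unigene0046596) from 33.0 to 7.43 RPKM, and peptide chain release factor 2 without a compartment (Unigene0041735) rose from 3.06 to 9.84 in limma and with TMM but did not pass with DESeq2. The chloroplast ribosome recycling factor (Unigene0031114) fell from 32.2 to 12.8 RPKM, and that without a compartment (Unigene0021611) rose from 3.10 to 10.5 in limma and passed neither with TMM nor with DESeq2.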

How the data were processed

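Poly(A)-selected RNA of thorn seat tissue was sequenced at 4 stages, of which NL and L2 were used here (L0 and L1 not analysed here). According to the paper's methods, the authors assembled reads with Trinity and mapped them to the unigenes with Bowtie2, while the counting tool and the test for DEGs are not given in the sources used here. The authors deposited RPKM values per library, the mean RPKM of each stage, and the mean read count of its 3 libraries, of the unit expected counts since means of whole counts need not be whole. The deposited log2 ratio, p-value and FDR are the authors' own comparison and were not used. Genes were kept in the table where the FDR was at most 0.05 and mean RPKM changed 2-fold or more (log2 ratio beyond 1).

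Reads per library, totals and lengths were recovered from RPKM values and mean counts, and 59302 of 59302 values above 0 came out whole within 0.05 reads. Stages were compared with limma 3.58.1 (R 4.3.3) on log2(RPKM + 0.1) with trend, two-sided, with Benjamini-Hochberg adjustment over all 11051 genes, so that log2 changes of low genes are understated. Alternatives were edgeR 4.0.16 (quasi-likelihood, TMM or library totals) and DESeq2 1.42.0 on recovered reads, upper quartile scaling, log2(RPKM + 1), log2(RPKM + 0.01), a minimum of 1 RPKM in at least 3 libraries, a replicate block, and omission of single libraries. Scripts were tested on simulated data. Folds are ratios of mean RPKM. Floors and 95% exact (Clopper-Pearson) intervals cover counting error only. Roles and compartments follow words in the annotations, which come from matches to 21 species (37 of 73 to Beta vulgaris). An annotation that named both chloroplast and mitochondria was counted as chloroplast. Unigenes sharing an annotation (10 in 5 pairs) may share reads.

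The members, word lists and tests were chosen with earlier results of these data known. Named in each role were the 2 most abundant unigenes, the 2 largest rises and falls without overlap and with both stage means at 1 RPKM or more, those against the majority where 5 or fewer, and those without reads in a stage. Other members, and the pathway genes outside the 73, were named after their values were seen. TOR, S6 kinase and RAPTOR names matched no listed gene. The sequences of the unigenes were not used here.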

Additional observations from a re-analysis of the deposited data

How the results depend on the processing

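All tests were run on genes preselected by the authors from these same 6 libraries, and the 3 libraries of a stage limit the precision of low unigenes. Under every alternative, 30 of the 73 unigenes were tested, kept their direction and had an adjusted p of at most 0.05, namely 12 rises and 18 falls, the exception among the falls being Unigene0054343. Unigene0015384 passed under all but the minimum of 1 RPKM, which left 3 unigenes untested. Scaling changed most. The unigenes higher in L2 numbered 54 in limma, 26 with TMM and 13 with DESeq2. The median log2 change of all 73, falls included, was 1.27 in limma. It moved to 0.38 with TMM, 0.15 with DESeq2 and 0.78 with upper quartile scaling. The rises among nucleolar, U3 and rRNA unigenes went from 24 to 8 with DESeq2, those of tRNA ligases from 10 to 2 with TMM and 1 with DESeq2, those of initiation factors from 12 to 1 in both, and those of elongation factors from 6 to 1 with DESeq2. With DESeq2 the log2 changes of Unigene0047152, Unigene0039548, Unigene0047447 and Unigene0014250 reversed to -0.0779, -0.0274, -0.0277 and -0.0178. With a minimum of 1 RPKM in 3 or more libraries, which removes low unigenes, the median of the tRNA ligases reversed from 1.09 to -1.17 and that of the DEAD-box helicases from -1.04 to 0.0448. With edgeR on library totals, all 54 rises and 19 falls passed.

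Leaving out each library in turn gave 47 to 52 unigenes higher and 18 to 19 lower, with a median log2 change of 1.22 to 1.37. No unigene changed direction, and 64 of the 73 passed without each library in turn. The replicate number as a block gave 52 higher and 19 lower. The deviations of same-numbered libraries correlated weakly, at 0.02 to 0.06, although each library correlated best with its own number. Whether same-numbered libraries share more than the number is not known here.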

Other observations

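Of 15 DEAD-box ATP-dependent RNA helicases, enzymes that open RNA structures, 7 were higher and 8 lower in L2 in limma, and 3 were higher with TMM and 1 with DESeq2 beside the same number of falls. The 8 falls include 4 unigenes annotated as helicase 32, with log2 changes of -3.51 to -1.04, and both chloroplastic-like helicase 3 unigenes, of which Unigene0048885 went from 82.2 to 16.5 RPKM. Of the rises, helicase 53 (Unigene0037605) went from 11.8 to 45.0 RPKM. Of 4 subunits of the exosome complex, which trims rRNA from its end, RRP42 (Unigene0026418) and RRP45B (Unigene0002408) were higher in limma but passed neither with TMM nor with DESeq2, and RRP41 (Unigene0027647) and CSL4 (Unigene0033139) were lower in all 3. Pseudouridine synthases and other tRNA-modifying enzymes were higher in 11 and lower in 10 of 21 unigenes in limma, and 6 were higher with TMM and 1 with DESeq2, with 10 lower in each.

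The unigene for SBDS (Unigene0031105), which in yeast and animals works with eIF6 on the late large subunit, went from 34.3 to 14.2 RPKM, a log2 change of -1.30 (adjusted p = 0.00112 from limma), the same direction as eIF6-2, whose log2 change was -1.55. Of the KEGG pathway RNA polymerase, 13 of 15 unigenes were higher in L2 in limma, and 5 with TMM and with DESeq2. The shares of all listed genes were 63.0% in limma, 38.6% with TMM and 25.1% with DESeq2.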
